A study of Arabidopsis thaliana with 8 samples.

Results

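The genes described here encode 10 enzymes of carotenoid synthesis in Arabidopsis: phytoene synthase (PSY, AT5G17230), phytoene desaturase (PDS, AT4G14210), zeta-carotene desaturase (ZDS, AT3G04870), carotenoid isomerase (CRTISO, AT1G06820), lycopene beta-cyclase (LCYB, AT3G10230), lycopene epsilon-cyclase (LUT2, AT5G57030), the cytochrome P450 hydroxylases LUT5 (AT1G31800, also CYP97A3) and LUT1 (AT3G53130), and the beta-carotene hydroxylases BCH1 (AT4G25700) and BCH2 (AT5G52570). They were picked by the locus code that precedes the dot in a transcript's name, which found 25 transcripts of these 10 genes among 48332 transcripts of 27628 genes. All 10 passed the filter on low counts.

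RNA-seq measured polyadenylated RNA in roots of wild type (WT) and of the hy5 mutant, which carries a lesion in the light-response transcription factor HY5. Seedlings stood upright on solid Murashige and Skoog medium, their roots were cut from the shoots, and the roots lay in liquid medium without hormone or with 0.1 uM of the cytokinin benzyladenine (BA). Each genotype in each medium was a group of 2 libraries, named WT Control, hy5 Control, WT BA and hy5 BA. The sources used here do not give the allele of hy5, the length of the BA treatment or whether the replicates are separate cultures. The p-values therefore reflect no more than the spread among these 8 libraries, which may be technical.

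Carotenoids are plastid pigments that gather light, protect against excess light and yield the hormones abscisic acid and strigolactone. PSY joins geranylgeranyl diphosphate into phytoene and is regarded as the step that sets the flux, PDS, ZDS and CRTISO turn phytoene into red lycopene, and a branch between LCYB and LUT2 then divides the flow between beta-carotene and the lutein side. In roots the pathway runs at a low rate and feeds mainly hormone synthesis, and in seedlings HY5 is known to promote PSY through an ACGT-containing promoter element that it shares with the PIF factors.

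The promoter windows of the 4 genes with the largest hy5 differences are shown here, because the sequence bound by factors like HY5 centres on ACGT. Each runs from 250 bases before to 50 bases after the annotated gene start, 5′ to 3′ on the gene's strand, taken from the RefSeq annotation of the build TAIR10.1. Capitals mark ACGT, a motif that reads the same on both strands, and in BCH2 the longer CACGTG that contains it. The window of LUT5 lies on the plus strand at chr1:11396152-11396451, that of LUT1 on the plus strand at chr3:19692507-19692806, that of BCH2 on the minus strand at chr5:21337077-21337376, and that of PSY on the minus strand at chr5:5662948-5663247.
LUT5: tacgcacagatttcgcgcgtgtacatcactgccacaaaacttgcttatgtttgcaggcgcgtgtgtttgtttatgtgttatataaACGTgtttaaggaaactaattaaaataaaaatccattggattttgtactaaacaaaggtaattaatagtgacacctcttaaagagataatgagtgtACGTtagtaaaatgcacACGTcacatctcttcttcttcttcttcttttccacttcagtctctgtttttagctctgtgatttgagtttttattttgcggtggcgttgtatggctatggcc
LUT1: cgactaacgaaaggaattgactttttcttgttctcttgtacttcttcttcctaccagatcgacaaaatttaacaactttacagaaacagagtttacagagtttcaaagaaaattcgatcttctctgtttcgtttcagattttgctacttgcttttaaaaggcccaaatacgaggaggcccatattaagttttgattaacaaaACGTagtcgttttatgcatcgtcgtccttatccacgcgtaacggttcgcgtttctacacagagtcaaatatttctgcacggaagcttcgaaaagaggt
BCH2: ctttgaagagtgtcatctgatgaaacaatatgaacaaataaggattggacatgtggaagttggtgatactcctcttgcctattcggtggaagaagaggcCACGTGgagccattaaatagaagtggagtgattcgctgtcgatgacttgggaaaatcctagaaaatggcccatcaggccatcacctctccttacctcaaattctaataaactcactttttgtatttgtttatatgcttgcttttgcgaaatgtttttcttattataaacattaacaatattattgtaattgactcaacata
PSY: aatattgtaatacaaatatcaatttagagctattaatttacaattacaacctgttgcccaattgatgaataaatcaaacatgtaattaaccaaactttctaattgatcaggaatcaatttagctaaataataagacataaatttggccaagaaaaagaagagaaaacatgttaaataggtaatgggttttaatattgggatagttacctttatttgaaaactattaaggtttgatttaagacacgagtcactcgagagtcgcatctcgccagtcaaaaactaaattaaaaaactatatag
LUT5 has 3 matches, LUT1 has 1, BCH2 has 1 that lies inside the longer palindrome CACGTG (the G-box), and the PSY window has none.

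Totals were 29928501 to 35289411 estimated counts per library. HY5 stood at 38.8 to 42.1 TPM (a level scaled for library size and for transcript length) in the WT libraries and at 1.02 to 2.50 TPM in the hy5 libraries, so no library went against its genotype label. The cytokinin response regulator ARR5 rose with BA by 3.27 ± 0.09 (SE) on the log2 scale in WT and by 2.81 ± 0.08 in hy5. All 8 root markers were present, and each of the 5 shoot markers was under 1 TPM in every library. Estimated counts that missed a whole number by less than 0.001 made up 21.6% of transcripts in hy5 Control 1 and 23.6% in hy5 BA 2 but 1.34 to 1.53% in the other libraries, so results were also computed without this pair of libraries.

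Transcripts of all 10 enzymes were found in every root library, at low to moderate levels. ZDS was the highest and LCYB the next in all 8 libraries, with ZDS at 16.3 ± 0.44 TPM (SD, n = 2) and LCYB at 12.3 ± 0.81 TPM in WT Control. PDS and CRTISO held the next positions and exchanged places between libraries. Below them, LUT2, LUT5 and BCH1 in WT lay between 5.01 and 7.37 TPM and also exchanged places, so their order is not larger than their spread. PSY was 5th in each WT library and 7th in each hy5 library. LUT1 was 9th and BCH2 10th in each WT library, and in hy5 their order was the other way round, with LUT1 10th and BCH2 8th or 9th. Summed over the 10 genes, the level was 75.4 to 81.2 TPM in the WT libraries and 59.6 to 65.1 TPM in the hy5 libraries.

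**Figure D1:**
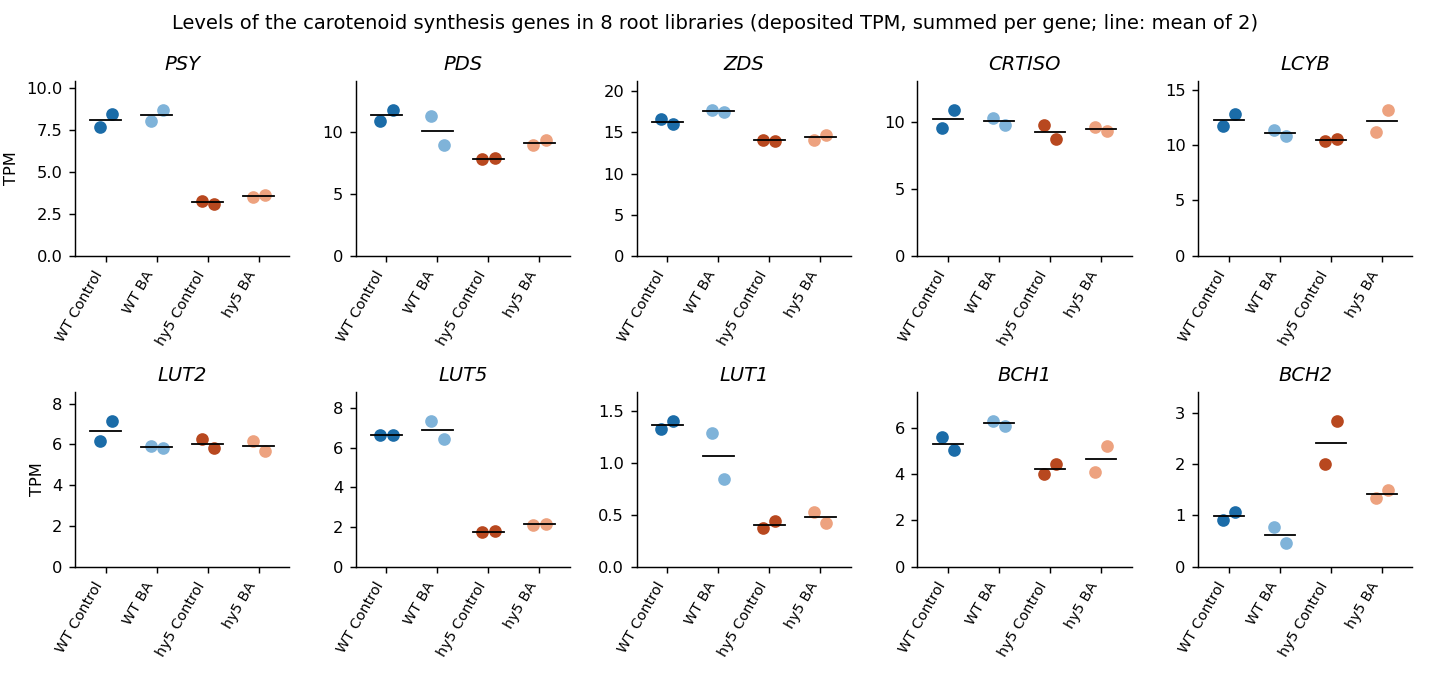
Each panel shows 1 gene, with the deposited TPM summed over its transcripts on a linear axis that starts at 0, 1 point for each of the 8 libraries and a line at the mean of each group. PSY, LUT5 and LUT1 sit lower in all 4 hy5 libraries than in all 4 WT libraries, BCH2 sits higher in all 4, and the points of CRTISO and LUT2 overlap across the groups.

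In control medium, PSY, PDS, LUT5 and LUT1 were lower in hy5 than in WT and BCH2 was higher, while ZDS, CRTISO, LCYB, LUT2 and BCH1 did not pass the test. Against a background of 11.4% of all 22682 tested genes called lower and 13.7% called higher (25.1% in all), 4 of the 10 enzymes were called lower and 1 higher. PSY, LUT5 and LUT1 fell by more than 2-fold, which 2.67% of all tested genes did. The median log2 fold of the 10 was -0.26, beside -0.0010 over all genes. Calls needed an adjusted p below 0.05 from edgeR's quasi-likelihood test, with Benjamini-Hochberg adjustment over all tested genes. Whether groups of 2 libraries overlap is described without a test and without the share over all genes. In whole roots, fewer cells of a type and less RNA per cell cannot be told apart.

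PSY, which makes phytoene, stood at 7.67 and 8.48 TPM in WT Control and at 3.27 and 3.12 TPM in hy5 Control. Every hy5 library was below every WT library. The fold was 2.37 in the direction of lower in hy5, a log2 change of -1.25 ± 0.12 (SE, adjusted p = 6.02e-07), and 2.22% of tested genes had a log2 fold at or below it. Estimated counts behind these levels were 395 and 390 in WT Control and 168 and 159 in hy5 Control. A neighbour on the opposite strand, AT5G17220, shares 108 bases with PSY and had 3 to 21 estimated counts per library.

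PDS, which adds the first double bonds to phytoene, was at 10.9 and 11.8 TPM in WT Control against 7.80 and 7.93 TPM in hy5 Control. The groups did not overlap, and the log2 change was -0.47 ± 0.09 (adjusted p = 0.00104). For ZDS, which carries the desaturation on, the levels were 16.6 and 16.0002 TPM in WT Control and 14.1 and 14.0 TPM in hy5 Control. Its log2 difference was -0.14 ± 0.07 (adjusted p = 0.200) and was not called. CRTISO, which brings the poly-cis product into the all-trans form of lycopene, was at 9.56 and 10.9 TPM in WT Control and at 9.76 and 8.69 TPM in hy5 Control. These values overlap, and the interval of the log2 difference ran from -0.26 to 0.10 at 95%.

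Neither cyclase passed the test. LCYB, which closes beta rings at the ends of lycopene, had 11.7 and 12.8 TPM in WT Control and 10.4 and 10.5 TPM in hy5 Control. Its log2 difference was -0.18 ± 0.09 (adjusted p = 0.169), with an interval of -0.37 to 0.01 at 95%. Scaled by library size only, LCYB was called lower (-0.26, adjusted p = 0.0449). LUT2, which closes the epsilon ring that leads to lutein, had 6.18 and 7.15 TPM in WT Control and 6.24 and 5.81 TPM in hy5 Control. The LUT2 libraries overlap, and the interval of the log2 difference was -0.30 to 0.12. With TMM scaling, the branch at lycopene therefore showed no called difference on either side, with the bounds above on what could have been missed.

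The P450 hydroxylases of the lutein branch gave the lowest log2 folds of the 10 genes. LUT5, which hydroxylates the beta ring of alpha-carotene, had 6.66 and 6.63 TPM in WT Control and 1.74 and 1.78 TPM in hy5 Control. All 4 hy5 libraries, at 1.74 to 2.16 TPM, were far below the WT libraries, whose lowest was 6.45 TPM. The change was 3.63-fold toward lower in hy5, or -1.86 ± 0.12 on the log2 scale (adjusted p = 6.72e-09), a value at the 1.08th percentile of all tested genes. LUT5 shares 108 bases with AT1G31810 on the opposite strand, which had 1124 to 1394 estimated counts per library and did not pass the test (log2 difference -0.20 ± 0.07, adjusted p = 0.0571).

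LUT1, which hydroxylates the epsilon ring, had 1.33 and 1.40 TPM in WT Control and 0.374 and 0.434 TPM in hy5 Control. The groups lay apart, with a log2 change of -1.70 ± 0.21 (adjusted p = 1.14e-05). It rests on 139 and 131 estimated counts in WT Control and on 38 and 44 in hy5 Control. The annotated LUT1 transcript of 3355 bases holds all 1316 transcript bases of AT3G53140, a gene on the same strand at chr3:19695643-19697542, which make up 39.2% of it. AT3G53140 was listed at 0 in all 8 libraries. Reads from the shared bases could come from either gene, and their part in the values given to LUT1 was not tested.

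The beta-carotene hydroxylases, which are close copies of each other and lead toward zeaxanthin, did not move alike in sign. BCH1 had 5.58 and 5.01 TPM in WT Control and 4.0004 and 4.44 TPM in hy5 Control, a log2 difference of -0.35 ± 0.14 that was not called (adjusted p = 0.0872). BCH2 had 0.904 and 1.06 TPM in WT Control and 2.00 and 2.85 TPM in hy5 Control, and its hy5 libraries were above both WT libraries. Its log2 change was 1.16 ± 0.26 (adjusted p = 0.00293). These levels rest on 30 and 27 estimated counts in WT Control and on 55 and 71 in hy5 Control. Without hy5 Control 2 the log2 value was 0.94 and no longer called (adjusted p = 0.0542).

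**Figure D2:**
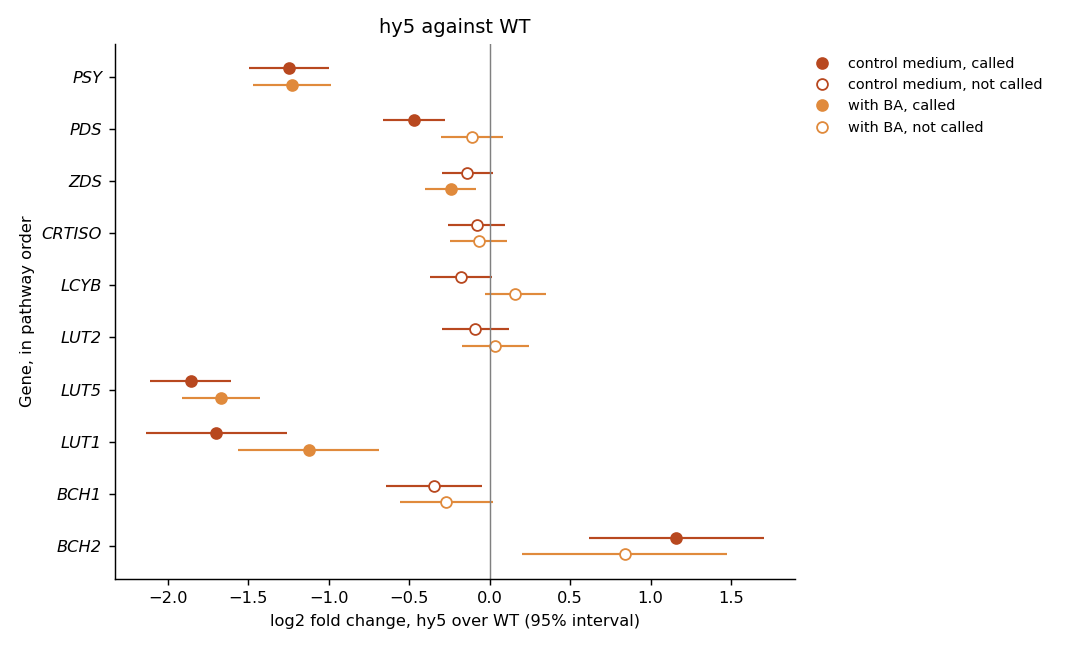
The horizontal axis is the log2 fold change of hy5 over WT with its 95% interval, for each gene in pathway order, in control medium and with BA; filled points passed the test. PSY, LUT5 and LUT1 lie below -1 in both media, and the intervals of CRTISO and LUT2 include 0 in both.

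With BA in the medium, PSY, LUT5 and LUT1 were again lower in hy5, and ZDS was called lower as well. In this comparison 12.4% of all tested genes were called lower and 11% higher (23.5% in all), and 4 of the 10 enzymes were called lower and 0 higher. The medians were -0.18 over the 10 genes and 0.01 over all genes. The comparison uses other libraries than that in control medium. PSY was at 8.06 and 8.69 TPM in WT BA and 3.50 and 3.61 TPM in hy5 BA, a log2 change of -1.23 ± 0.11 (adjusted p = 7.88e-07). LUT5 was at 7.37 and 6.45 TPM in WT BA and 2.105 and 2.16 TPM in hy5 BA, a change of -1.67 ± 0.11 (adjusted p = 2.23e-08). Both genes had no overlap between the genotypes.

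LUT1 was at 1.28 and 0.846 TPM in WT BA and at 0.528 and 0.419 TPM in hy5 BA, with a log2 change of -1.13 ± 0.21 (adjusted p = 0.000744). The WT BA libraries were wide apart, and both exceeded the hy5 BA libraries. ZDS was at 17.7 and 17.5 TPM in WT BA and 14.1 and 14.7 TPM in hy5 BA, a change of -0.24 ± 0.07 (adjusted p = 0.0250). This call was lost with DESeq2 (adjusted p = 0.0854) and without WT BA 2 (0.152), hy5 BA 1 (0.105) or hy5 BA 2 (0.0863), and it was 0.129 when the pair hy5 Control 1 and hy5 BA 2 was left out.

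PDS, called in control medium, had 11.3 and 8.96 TPM in WT BA and 8.94 and 9.36 TPM in hy5 BA. These overlap, and the log2 difference was -0.11 ± 0.09 (adjusted p = 0.419). The change of the hy5 difference with BA was 0.36 ± 0.13 and was itself not called (adjusted p = 0.235), so the PDS difference is not shown to depend on BA. BCH2 had 0.766 and 0.455 TPM in WT BA and 1.33 and 1.49 TPM in hy5 BA, a difference of 0.84 ± 0.30 that did not pass (adjusted p = 0.0544), though it passed with the effective-length offset (1.24, adjusted p = 0.00875) and without WT BA 1 (1.19, adjusted p = 0.0414). The change of the BCH2 difference with BA was -0.32 ± 0.40 (adjusted p = 0.761), and that of ZDS was -0.10 ± 0.10 (adjusted p = 0.688). LCYB, LUT2, CRTISO and BCH1 lay between -0.27 and 0.16 on the log2 scale and were not called.

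BA called none of the 10 enzymes in WT and only BCH2 in hy5. In WT, 8.2% of all tested genes were called for BA (3.88% higher and 4.33% lower), and 0 of the 10 enzymes were, by edgeR and by DESeq2 alike; 1 of them, ZDS, had an unadjusted p under 0.05 (log2 change 0.17 ± 0.07, adjusted p = 0.165). Median log2 folds were -0.03 for the 10 genes and 0.0093 for all genes. For the 8 genes other than LUT1 and BCH2, the 95% intervals in WT lay between -0.35 and 0.47, which bounds the BA change that could have been missed. LUT1 and BCH2 had wider intervals, from -0.70 to 0.05 and from -1.16 to 0.18.

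In hy5, 11.1% of all tested genes were called for BA, 3.11% as higher and 8.01% as lower, and 1 of the 10 enzymes was called. BCH2 fell from 2.00 and 2.85 TPM in hy5 Control to 1.33 and 1.49 TPM in hy5 BA, a log2 change of -0.81 ± 0.24 (adjusted p = 0.0432). The call was lost in 9 of 16 alternatives, among them DESeq2 (adjusted p = 0.255) and each run that left out 1 of the 4 hy5 libraries (log2 changes of -0.996 to -0.606). In WT, BCH2 was also lower with BA in both libraries, with a log2 difference of -0.49 ± 0.32 that was not called (adjusted p = 0.363). This hy5 comparison shares the hy5 Control libraries with the genotype comparison in control medium, so a high BCH2 value in hy5 Control enters both.

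LUT5, LCYB and PDS had unadjusted p-values under 0.05 for BA in hy5. Their log2 differences were 0.29 ± 0.13, 0.24 ± 0.09 and 0.23 ± 0.09, and the adjusted p-values were 0.200, 0.112 and 0.136. Scaled by library size only, LCYB (0.32, adjusted p = 0.0334) and PDS (0.31, adjusted p = 0.0443) were called. The median over the 10 genes was 0.19, beside 0.02 over all genes. The median of 6 markers of photosynthesis was 0.91 in the same comparison, and their part in the members' values was not tested. The BA response differed between genotypes for 0 of the 10 enzymes by edgeR and by DESeq2, where 0.485% of all tested genes were called (0.0485% higher and 0.436% lower). Of the 10, PDS and LCYB had an unadjusted p under 0.05 for this difference, with 0.36 ± 0.13 for PDS and 0.34 ± 0.13 for LCYB (adjusted p = 0.253 for LCYB). The highest of the 10 estimates was that of LUT1 at 0.57 ± 0.30, with an interval from -0.06 to 1.21, and the interval of BCH2, from -1.18 to 0.54, was wider still.

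**Figure D3:**
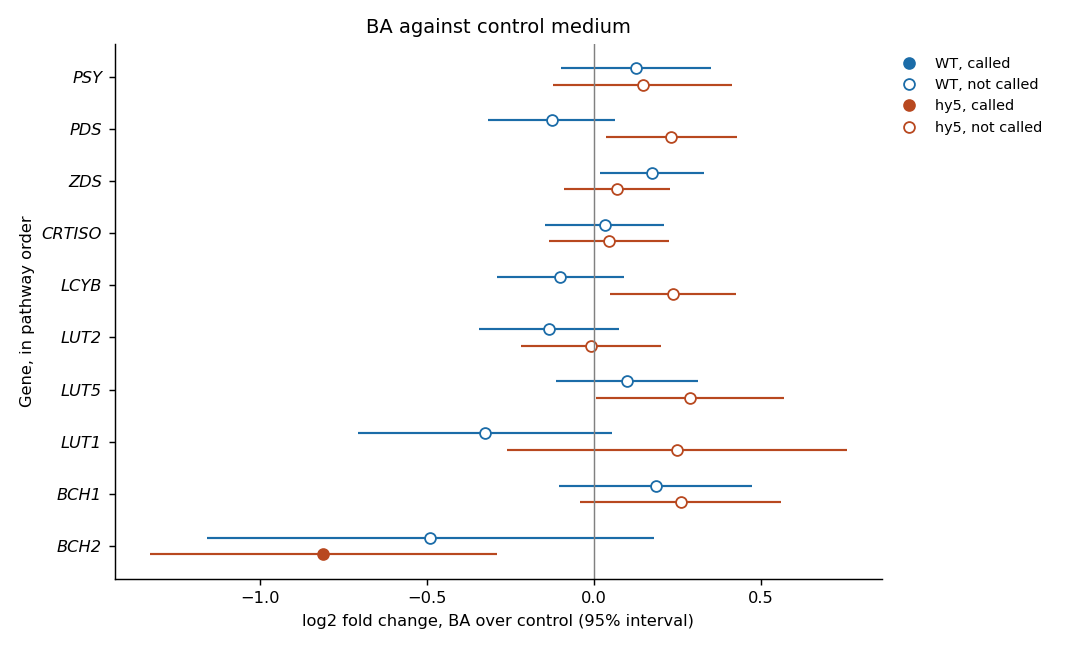
The horizontal axis is the log2 fold change of BA over control medium with its 95% interval, for each gene in pathway order, in WT and in hy5; a filled point passed the test. BCH2 in hy5, at -0.81, is the only filled point, and LUT1 and BCH2 have the widest intervals.

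The 10 genes also differed in how much they varied over all 8 libraries. The span from the lowest to the highest log2 CPM (counts scaled to library size) was 2.07 for BCH2, 2.01 for LUT5, 1.78 for LUT1 and 1.503 for PSY. It was 0.23 for CRTISO and 0.25 for LUT2, the smallest of the 10. After centring each gene on its own mean, CRTISO and LUT2 were the closest pair, with a root mean square difference of 0.07 log2 CPM over 8 libraries. LUT5 and BCH2 were the most distant pair at 1.42.

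Salmon divided most of these genes among several transcripts, and the deposited tables give no error for that division. The PSY transcript AT5G17230.2 held 72.9 to 88.5% of the TPM of PSY in the 8 libraries and starts 531 bases after the annotated gene start. PDS was mostly AT4G14210.3, with 84.7 to 96.0%, which starts 392 bases after the gene start. ZDS was divided between AT3G04870.2, at 64.6 to 95.3%, and AT3G04870.4, at 0 to 35.4%. The share of AT3G04870.2 was 64.6% in both WT Control libraries, below the 66.5 to 95.3% of the other 6, while hy5 Control and hy5 BA overlapped. LUT1, LUT2 and LUT5 have 1 transcript each in the tables.

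In these libraries the division of BCH2 followed the genotype. The minor PDS transcript AT4G14210.1 held 0 to 4.41% of the PDS TPM in WT and 4.62 to 12.1% in hy5. Its estimated counts overlapped between the genotypes, at 0 to 31.9 in WT and 27.8 to 66.1 in hy5. In BCH2, the shorter transcript AT5G52570.2 starts 124 bases after the gene start. It held 10.8 and 52.7% of the BCH2 TPM in WT Control and 0% in both WT BA libraries. In hy5 Control it held 53.7 and 77.2%, and with BA the hy5 shares were 68.5 and 81.6%. Each hy5 share was above each WT share. The estimated counts behind it were 0 to 11.6 in WT and 22.6 to 49.4 in hy5, while the longer AT5G52570.1 had 15.0 to 27.7 in WT and 9.24 to 30.8 in hy5. These counts are small, and the shares were described without a test or a comparison with all transcripts.

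Coding sequences of related enzymes were aligned to see which pairs could exchange reads. BCH1 and BCH2 were 83.7% identical over 887 aligned bases and shared 3 overlapping words of 31 bases, which lie in a run of 33 identical bases, while the other pairs shared 0. Identity was 62.7% for LUT1 with LUT5, 61.0% for LCYB with LUT2 and 60.8% for PDS with ZDS. A few reads of BCH1, which had 143 to 218 estimated counts per library, could thus be assigned to BCH2 or the reverse. BCH1 was not called in any comparison with TMM scaling, and its levels were lower in hy5 Control than in WT Control, the other direction from BCH2. Opposite directions do not show whether reads were exchanged, which was not tested.

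Across the promoter windows of all 10 enzymes, ACGT occurred in 6 (ZDS, CRTISO, LUT2, LUT5, LUT1 and BCH2), and in 49.9% of 27443 windows of the same length over the genome. The G-box CACGTG, which contains ACGT, was in 1 of the 10 and in 7.68% of all windows. That single match was BCH2's, 151 bases before the start. With 1000 bases before the start, a window chosen after seeing the data, CACGTG was again in 1 of 10, against 14.8% of all genes. ATCTA, an element described in PSY and PDS promoters as the target of the factor RAP2.2, was in 5 of the 10 windows on either strand and in 54.0% of all windows.

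The matches did not sort the genes by their hy5 difference. LUT5 has ACGT at 165, 69 and 52 bases before its start and LUT1 at 48, as the sequences above show. ZDS, CRTISO and LUT2 also hold ACGT, and none of them was called in control medium with TMM scaling. ZDS was called lower in hy5 with BA (-0.24), and in control medium when scaled by library size only (-0.22). PSY holds neither ACGT nor ATCTA in its window, although the abundant PSY transcript starts further downstream. When the windows were placed at the start of each gene's most abundant transcript, also a choice made after seeing the data, CACGTG was in 0 of 10, ACGT in 5 and ATCTA in 5. In that placement ATCTA lies 173 and 26 bases before the start of the abundant PSY transcript. A match describes letters in a window and does not show that a factor binds there.

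**Figure D4:**
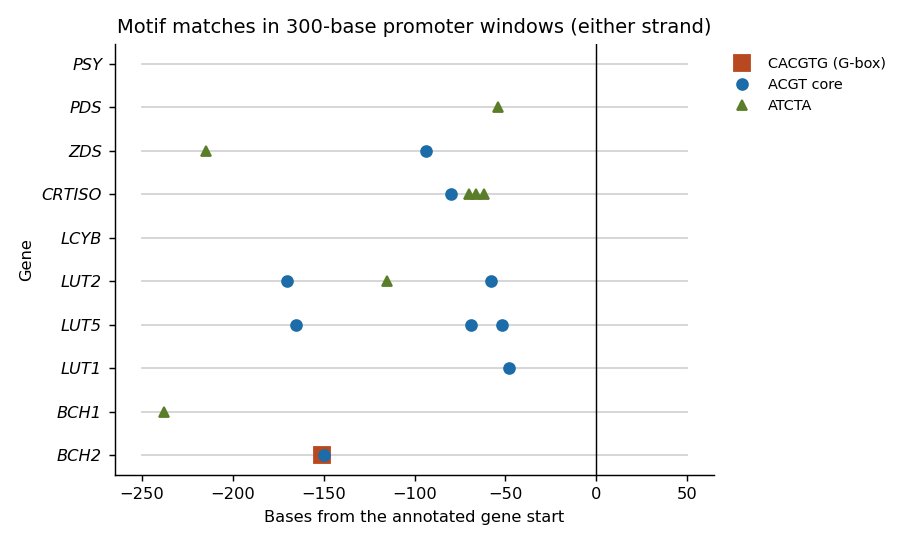
Each line is the window of 1 gene, from 250 bases before to 50 bases after the annotated gene start at 0, in bases; symbols mark matches of CACGTG (the G-box), of ACGT and of ATCTA on either strand. LUT5 holds 3 ACGT matches, BCH2 holds the only CACGTG, and PSY and LCYB hold none of the motifs.

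Upstream of PSY, the plastid MEP pathway and geranylgeranyl diphosphate synthase supply the precursors. All 12 genes listed for this supply were tested, and in control medium 2 were lower in hy5 and 1 was higher. These 3 of 12 make a share near the 25.1% of all tested genes called in that comparison. DXS, the first enzyme of the MEP pathway, had 19.3 and 20.7 TPM in WT Control and 12.2 and 13.1 TPM in hy5 Control, a log2 change of -0.61 ± 0.08 (adjusted p = 1.77e-05). GGPPS11, which makes geranylgeranyl diphosphate in plastids, had 13.3 and 14.5 TPM in WT Control and 8.44 and 8.79 TPM in hy5 Control, a log2 change of -0.63 ± 0.09 (adjusted p = 3.14e-05). Both were also called with BA, at -0.62 ± 0.08 for DXS and -0.63 ± 0.09 for GGPPS11, and neither overlapped between genotypes. GGPPS11 shares 1529 bases with a gene on the opposite strand, AT4G36808, which the deposited quantification does not list.

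IPP2, an isopentenyl diphosphate isomerase, was higher in hy5 in control medium by 0.32 ± 0.08 on the log2 scale (adjusted p = 0.00507), a call that was lost without hy5 Control 1. It shares 712 bases with AT3G02790 on the opposite strand, which had 0 estimated counts in every library. The median log2 fold of the 12 genes was -0.06 in control medium and -0.0076 with BA. BA called 0 of them in WT and 1, DXPS1, in hy5 (0.65 ± 0.18, adjusted p = 0.0323, a call lost with DESeq2 and without hy5 Control 1, hy5 Control 2 or hy5 BA 1). Of all tested genes, BA called 8.2% in WT and 11.1% in hy5. Of 7 further enzymes and helpers, among them the zeta-carotene isomerase Z-ISO and the zeaxanthin epoxidase ZEP, only ABA4 was called in control medium (0.23 ± 0.08, adjusted p = 0.0481). That call was lost in 15 of 16 alternatives, and 25.1% of all tested genes were called in the same comparison.

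Of 10 genes for enzymes that cleave carotenoids, 7 were tested. CCD1, which cleaves a broad range of carotenoids in the cytosol, had 73.2 and 69.5 TPM in WT Control and 27.1 and 26.8 TPM in hy5 Control. The genotypes lay far apart, with a log2 change of -1.35 ± 0.07 (adjusted p = 1.06e-09), and with BA the change was -1.23 ± 0.07 (adjusted p = 3.48e-09). CCD8, an enzyme of strigolactone synthesis, was higher in hy5 by 0.55 ± 0.13 in control medium (adjusted p = 0.00452) and by 0.50 ± 0.14 with BA (adjusted p = 0.0131). Its call in control medium was lost without hy5 Control 2, and that with BA was lost with DESeq2 and without WT BA 1 or hy5 BA 2. CCD8 shares 330 bases with AT4G32820 on the opposite strand. NCED3, which makes the abscisic acid precursor xanthoxin, went from 7.62 and 7.55 TPM in hy5 Control to 10.4 and 12.1 TPM in hy5 BA, a log2 change of 0.58 ± 0.10 (adjusted p = 0.000752). This call was lost when hy5 Control 1 and hy5 BA 2 were both left out. With BA, NCED3 was higher in hy5 than in WT by 0.58 ± 0.10 (adjusted p = 0.000334). The BA response differed between genotypes for 0 of the 7 genes and for 0.485% of all tested genes.

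**Figure D5:**
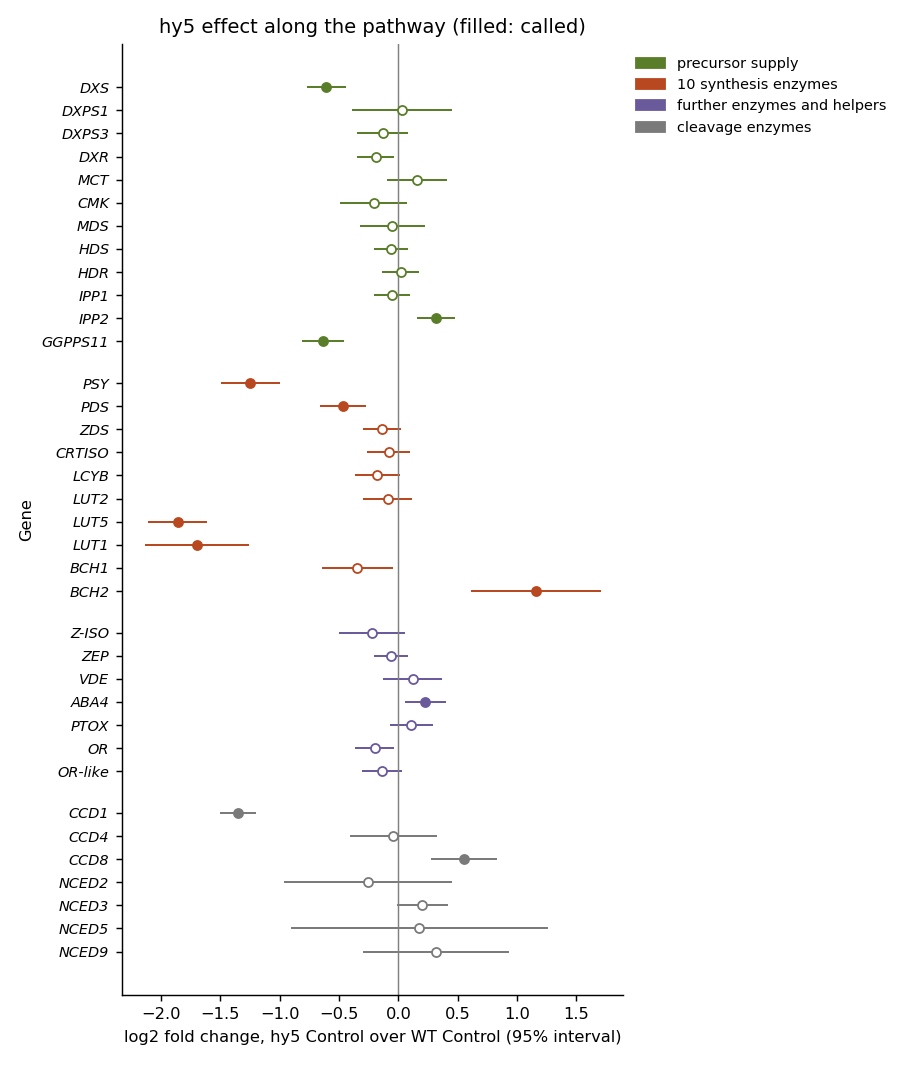
The horizontal axis is the log2 fold change of hy5 Control over WT Control with its 95% interval, for the tested genes of precursor supply, the 10 synthesis enzymes, further enzymes and helpers, and cleavage enzymes; filled points passed the test. LUT5, LUT1, CCD1 and PSY lie below -1, DXS and GGPPS11 near -0.6, and BCH2 above 1.

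Among 9 genes known to regulate carotenoid genes, 4 were lower and 2 higher in hy5 in control medium, where 11.4% and 13.7% of all tested genes were. The 4 include HY5, the mutated gene. HY5 fell by 5.17 ± 0.18 and its homologue HYH fell by 3.01 ± 0.16 on the log2 scale. PAR1, a cofactor that antagonises PIF factors, was higher at 8.87 and 7.27 TPM in hy5 Control against 4.32 and 3.66 TPM in WT Control, a log2 change of 1.06 ± 0.14 (adjusted p = 2.98e-05). PIF4 was also called higher and PIF3 and RAP2.2 lower, and each of these calls was lost in at least 1 run that left out a library. With BA, 3 of the 9 were lower, namely HY5, HYH and RAP2.2, and 0 were higher. Of all tested genes, 12.4% were called lower and 11% higher in that comparison. The RAP2.2 call with BA (-0.23, adjusted p = 0.0396) was lost in 6 of 16 alternatives. BA called 1 of the 9 in each genotype, where 8.2% of all tested genes were called in WT and 11.1% in hy5. In WT it was SDG8, a histone methyltransferase that promotes CRTISO, at -0.34 ± 0.08 on the log2 scale (adjusted p = 0.0123), a call lost without WT Control 1 or WT BA 2. In hy5 it was PAR1 at -0.57 ± 0.14 (adjusted p = 0.0109), a call lost without hy5 Control 1, hy5 BA 1 or hy5 BA 2.

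Green plastids are rich in carotenoids, so markers of photosynthesis were set beside these genes. The summed level of 6 photosynthetic markers was 152 to 210 TPM in the WT libraries and 16.98 to 47.1 TPM in the hy5 libraries. In both media 5 of the 6 were called lower in hy5, where 11.4% of all tested genes were in control medium and 12.4% with BA. With BA, the calls of RBCS1A, LHCB2.1 and LHCA1 were lost in 6, 5 and 4 of 16 alternatives. The LHCA1 call in control medium was lost in 2. PSBO1, a subunit of photosystem II, changed by -2.60 ± 0.10 on the log2 scale in control medium. With BA in hy5, PSBO1 rose by 0.45 ± 0.11 (adjusted p = 0.0134) and RCA, the Rubisco activase, by 0.65 ± 0.13 (adjusted p = 0.00441), and both calls were lost without hy5 Control 1 or hy5 BA 2, and that of PSBO1 also without hy5 BA 1. PSY, LUT5 and LUT1 were lower in the same genotype as these markers, and the part of the markers in those differences was not tested. With BA in hy5, none of PSY, LUT5 and LUT1 was called, with log2 changes of 0.14, 0.29 and 0.25. Their 95% intervals ran from -0.12 to 0.41, from 0.0068 to 0.57 and from -0.26 to 0.76. The 5 shoot markers summed to 0.150 to 0.549 TPM in the 8 libraries. Of the 8 root markers, SCR was called lower with BA in each genotype (log2 change -0.38 ± 0.08 in both, adjusted p = 0.00766 in WT and 0.0044 in hy5), calls that were lost without WT BA 2 in WT and without hy5 Control 1 in hy5. CASP1 was called higher for the mutant in control medium (0.30 ± 0.09, adjusted p = 0.0222). COBL9 (-0.45 ± 0.14, adjusted p = 0.0239) and PYK10 (-0.55 ± 0.09, adjusted p = 0.000161) were called lower in hy5 BA than in WT BA. The CASP1 call was lost without WT Control 2, hy5 Control 1 or hy5 Control 2, and that of COBL9 without WT BA 2 or hy5 BA 1.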

How the data were processed

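Polyadenylated RNA of 8 root libraries was quantified per transcript. Per the submitters' processing notes, the authors used Salmon with the build TAIR10; the sources used here give no version, option or strand setting. Each deposited table holds, per the file headers, the authors' estimated counts and TPM for every transcript.

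Estimated counts were summed to genes and rounded. edgeR 4.0.16 in R 4.3.3 removed 4946 low genes (filterByExpr, minimum count 10), scaled with TMM and fitted 1 robust quasi-likelihood model of 4 group means to 22682 genes over 8 libraries (4 residual degrees of freedom). Tests were two-sided, with Benjamini-Hochberg adjustment and calls under 0.05. DESeq2 1.42.0, other filters and scalings, a replicate block and leaving out libraries were the alternatives. TPM, summed per gene, was used for levels only. Replicates differed by more than sampling noise (chi-square per gene 3.89 to 7.93), so no library was counted as a copy. Steps were tested on simulated data.

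Sequences and positions came from RefSeq's TAIR10.1, whose lengths equalled those of all 25 transcripts; coding sequences were compared in place of proteins. All 10 enzymes are named; of other lists the rule allows the called genes, at most 4 per comparison. The members and lists were chosen with earlier results of these data known.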

Additional observations from a re-analysis of the deposited data

How the results depend on the processing

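Of 786 values of the 10 enzymes under alternatives, 743 kept their direction and their side of the threshold, 15 lost the call, 7 gained one and 21 changed sign. PSY, LUT5 and LUT1 were called in all 16 alternatives in both media, and PDS in all 16 in control medium. The 21 sign changes were all among differences that were not called. Leaving out 1 library in turn gave values on both sides of 0 for BA in WT with CRTISO (-0.037 to 0.095), for BA in hy5 with LUT2 (-0.086 to 0.042) and CRTISO (-0.032 to 0.119), and for hy5 with BA with PDS (-0.224 to 0.00027) and LUT2 (-0.033 to 0.088). For the genotype by BA interaction it did so with BCH1 (-0.055 to 0.186), PSY (-0.099 to 0.144), CRTISO (-0.064 to 0.095) and BCH2 (-0.614 to 0.033). Without hy5 Control 1 and hy5 BA 2 together, LUT2 for BA in hy5 was 0.074 and BCH1 in the interaction -0.14. With library size only, LUT2 for BA in hy5 was 0.072 and ZDS in the interaction 0.0012, and with effective lengths BCH1 there was -0.11. The cause was not tested.

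Genes called over the genome ranged, when 1 library was left out, from 841 to 2220 for BA in WT (1861 with all 8), 1088 to 2867 for BA in hy5 (2523), 3685 to 5860 for hy5 in control medium (5696), 3366 to 5658 for hy5 with BA (5321) and 6 to 331 for the interaction (110). Without hy5 Control 1 and hy5 BA 2 together they were 586 for BA in hy5, 3433 for hy5 in control medium, 2999 for hy5 with BA and 6 for the interaction. For the interaction DESeq2 gave 302 and library size only 61. Of the 10 enzymes, 8 were called for hy5 in control medium with library size only, which added ZDS (-0.22), LCYB (-0.26) and BCH1 (-0.43). Leaving out 1 library gave 4 to 5 there and 3 to 5 for hy5 with BA. For BA in hy5 the count of 1 became 0 with DESeq2, effective lengths, the replicate block and both libraries left out, 2 with library size only (PDS and LCYB, while BCH2 lost its call), and 0 to 1 with 1 library left out. Library size only moved the median of all genes by 0.106 in the interaction. It changed the higher and lower calls from 3103 and 2593 to 2303 and 4263 for hy5 in control medium, from 706 and 1817 to 1712 and 1285 for BA in hy5, and from 11 and 99 to 22 and 39 for the interaction. PSY, PDS, LUT5 and LUT1 stayed lower under it.

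Same-numbered libraries did not deviate together (correlations of -0.07 to 0.02), so the numbers were not taken as pairs. A replicate block gave 1635, 2281, 5300, 4968 and 101 calls for BA in WT, BA in hy5, hy5 in control medium, hy5 with BA and the interaction, and BCH2 for BA in hy5 lost its call (adjusted p = 0.0563). A fit of only the 4 libraries compared gives no value for the interaction. Low counts limit BCH2 and LUT1, with 15 to 71 and 38 to 139 estimated counts per library.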
